A study of Mus musculus with 4 samples.

Results

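The Slc25 genes encode the carrier proteins of the inner mitochondrial membrane. They were taken as every GENCODE vM21 protein-coding gene whose name starts with Slc25a on mouse chromosomes 1 to 19, which gave 43 of 20807 protein-coding genes. A further 4 Slc25a genes on the X chromosome and 1 pseudogene were not members. The study profiled liver of wild type (WT) male mice that carried floxed Uhrf1 alleles without Cre (Uhrf1-fl/fl) and of male Uhrf1hepKO mice (Uhrf1-fl/fl;Alb:Cre), in which Cre is driven by the albumin promoter. All were C57Bl/6, were fed a normal diet and were between 8 and 12 weeks of age. The assays were ATACseq, which reads where a transposase can enter chromatin, and ChIPseq of the histone variant H2A.Z on nucleosomes released with micrococcal nuclease. The outcome was 4 peak lists, 1 library per genotype and assay, so every difference between the genotypes is a difference between 2 libraries and was not tested. Whether the ATACseq and H2A.Z libraries of a genotype came from the same animal is not given in the sources used here. Both groups carried the floxed alleles, and the deletion was limited to cells that use the albumin promoter, so that other liver cells kept Uhrf1.

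Carriers of this family move nucleotides, phosphate, amino acids, carboxylates, acylcarnitines and cofactors between the cytosol and the mitochondrial matrix. In liver they tie together the urea cycle, gluconeogenesis, fatty acid oxidation, lipid synthesis and oxidative phosphorylation. H2A.Z commonly occupies the nucleosomes beside an open transcription start site (TSS), and UHRF1 is the factor that directs DNMT1 to newly replicated DNA.

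The lists held between 10439 and 10636 ATACseq peaks and between 46400 and 50665 H2A.Z peaks on chromosomes 1 to 19. The fold enrichment of a peak is its read pileup over the local background. For ATACseq it is a mean over the peak, for H2A.Z it is the value at the summit, and it is not scaled between libraries. For every H2A.Z peak the number of reads at the summit was recovered as a whole number from the deposited fold and p-value, and it is given with its exact Poisson 95% interval. All intervals here cover counting error only. The lists do not give the total reads per library, and the most frequent H2A.Z background was 3.1 reads in WT and 3.3 reads in Uhrf1hepKO, a ratio of 1.065. Markers fixed for hepatocytes were largely without promoter peaks: of 8, 1 had an ATACseq and 2 an H2A.Z peak in WT, and 2 and 0 in Uhrf1hepKO, and these promoters held a median of 12.5 CpGs. None of 4 Kupffer and other blood cell markers and none of 4 endothelial markers had a peak at the TSS, while 1 of 4 cholangiocyte and 1 of 4 stellate markers had one in WT for each assay. Peaks at the TSS thus gave little by which to check the liver label. Past 5 kb into the gene, the endothelial markers Stab2, Lyve1 and Pecam1 held 7, 2 and 2 H2A.Z peaks in WT and 9, 3 and 1 in Uhrf1hepKO, and Kdr held none. Of the hepatocyte markers only Hnf4a had peaks there, 1 ATACseq peak in each genotype. Uhrf1 itself had 1 peak near its TSS in each of the 4 lists, which is no check of the deleted part.

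Peaks within 5 kb of the TSS were found at more Slc25 genes than at protein-coding genes as a whole, for both assays and in both genotypes. In WT, 33 of 43 Slc25 genes had an H2A.Z peak there (76.7%, Wilson 95% interval 62.3 to 86.8), against 54.4% of all protein-coding genes. In Uhrf1hepKO the number was 29 (67.4%, 52.5 to 79.5), against 52.6% of all. ATACseq peaks were present at 23 Slc25 genes in WT (53.5%, 38.9 to 67.5, all genes 31.4%) and at 22 in Uhrf1hepKO (51.2%, 36.8 to 65.4, all genes 29.0%). In all 4 lists 16 members had a peak (37.2%, all genes 21.9%), and 7 had none in any list (16.3%, all genes 40.6%). Both kinds of peak were present in WT at 20 members (46.5%, all genes 29.0%) and in Uhrf1hepKO at 18 (41.9%, all genes 26.2%). The members with a peak in both genotypes numbered 29 for H2A.Z (67.4%, all genes 50.4%) and 19 for ATACseq (44.2%, 30.4 to 58.9, all genes 24.0%). For Uhrf1hepKO H2A.Z the share of all genes lay at the lower edge of the interval of the members, and for the other 3 lists below it. In bulk tissue, fewer cells with an open or H2A.Z-marked promoter and less signal per cell cannot be told apart.

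**Figure D1:**
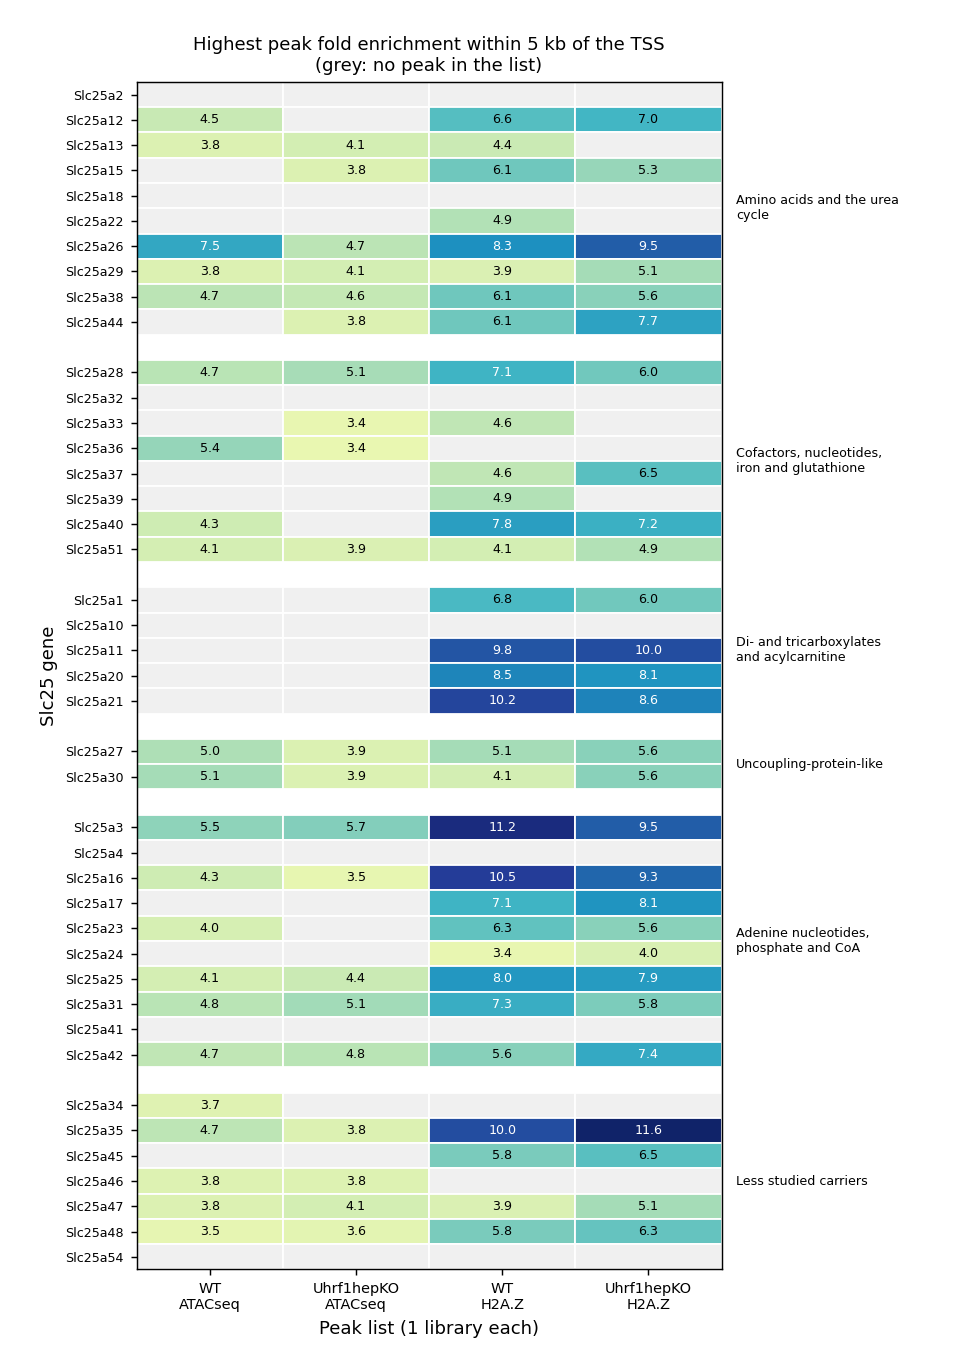
Highest fold enrichment of a peak within 5 kb of the TSS for 42 of the 43 Slc25 genes (rows, by role) in the 4 peak lists (columns, 1 library each), and grey cells have no peak. H2A.Z folds reached 11.6 at Slc25a35 and ATACseq folds 7.48 at Slc25a26. The 5 carriers of carboxylates and acylcarnitine had no ATACseq peak in either genotype, and neither had several members of other roles.

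Sequence is shown for 6 peaks that the results below turn on. Among members, they are the promoters with the highest ATACseq fold in each genotype and the promoter with the highest ATACseq fold and no H2A.Z. The others are the promoter that 2 members share, the promoter of the liver carrier Slc25a42, and a peak far upstream of Slc25a13. Each run is the part of the peak that overlaps no annotated exon (for Slc25a42 its 300 bases nearest to the TSS), read from the RefSeq genome sequence of GRCm38 on the strand of the gene, 5′ to 3′. Capitals mark matches to any of 8 short motifs searched on both strands. They were CCGGAAG for the ETS factors, GCATGCG as the core of the NRF1 motif, GGGCGG for the GC box and CCAAT for the CCAAT box, besides GATGGCG as the core of the YY1 motif, AAGGTCA for the half-site of nuclear receptors, CACGTG for the E-box and TGTTTAC for the forkhead factors.

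The WT ATACseq peak at Slc25a26, the carrier of S-adenosylmethionine, had the highest ATACseq fold of the family (7.48), and the 270 bases before its TSS (chr6:94500061-94500330, plus strand) held 17 CpGs, 1 E-box and 1 ETS motif.
Slc25a26: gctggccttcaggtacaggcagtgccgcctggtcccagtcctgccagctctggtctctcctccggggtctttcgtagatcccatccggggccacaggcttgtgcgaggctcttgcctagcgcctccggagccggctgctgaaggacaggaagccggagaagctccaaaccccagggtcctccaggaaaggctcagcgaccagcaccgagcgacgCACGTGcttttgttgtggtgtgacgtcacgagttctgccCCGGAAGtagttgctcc

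The Uhrf1hepKO ATACseq peak at Slc25a3, the mitochondrial phosphate carrier, had the highest fold of the family in that list (5.69). Of all peaks of the list, 11.7% reached this fold. The 180 bases of the peak upstream of the TSS (chr10:91124060-91124239, minus strand) held 12 CpGs, 1 ETS motif and 1 GC box.
Slc25a3: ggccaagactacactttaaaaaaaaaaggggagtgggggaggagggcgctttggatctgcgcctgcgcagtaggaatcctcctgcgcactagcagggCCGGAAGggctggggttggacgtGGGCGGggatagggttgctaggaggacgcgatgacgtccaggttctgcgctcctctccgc

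At Slc25a36, a pyrimidine nucleotide carrier with a WT ATACseq fold of 5.40 and no H2A.Z peak, the upstream part of the peak (chr9:97111158-97111392, minus strand) held 20 CpGs, 1 CCAAT box and 1 E-box.
Slc25a36: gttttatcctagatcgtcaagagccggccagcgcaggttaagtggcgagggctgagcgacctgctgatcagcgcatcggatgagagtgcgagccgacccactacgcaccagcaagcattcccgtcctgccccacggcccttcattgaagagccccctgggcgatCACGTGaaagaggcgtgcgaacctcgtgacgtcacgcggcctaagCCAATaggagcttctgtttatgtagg

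Slc25a29, a carrier of basic amino acids, and Slc25a47, a carrier found mainly in liver, start 163 bp apart on opposite strands, and the 162 bases between them (chr12:108835884-108836045, plus strand, as read towards Slc25a47) lay inside 1 WT ATACseq peak and held 18 CpGs, 1 GC box and 2 CCAAT boxes, 1 on each strand.
Slc25a29 to Slc25a47: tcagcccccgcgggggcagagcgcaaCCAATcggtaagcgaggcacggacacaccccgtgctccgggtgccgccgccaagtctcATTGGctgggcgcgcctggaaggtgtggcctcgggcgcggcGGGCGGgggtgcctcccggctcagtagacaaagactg

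Before Slc25a42, a carrier of coenzyme A and adenine nucleotides, the 300 bases shown (chr8:70212325-70212624, minus strand) held 17 CpGs, 6 CCAAT boxes, 1 ETS motif and 1 GC box.
Slc25a42: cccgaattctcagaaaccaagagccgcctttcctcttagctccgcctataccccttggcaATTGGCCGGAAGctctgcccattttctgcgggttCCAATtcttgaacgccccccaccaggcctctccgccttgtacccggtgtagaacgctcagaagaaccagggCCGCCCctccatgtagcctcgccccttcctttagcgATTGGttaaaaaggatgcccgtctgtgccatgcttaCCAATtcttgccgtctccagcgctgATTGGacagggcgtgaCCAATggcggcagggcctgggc

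The peak upstream of Slc25a13, the aspartate/glutamate carrier of liver, lay in intergenic sequence (chr6:6219749-6219951, minus strand) and held only 2 CpGs in 203 bases, with 1 CCAAT box.
Slc25a13: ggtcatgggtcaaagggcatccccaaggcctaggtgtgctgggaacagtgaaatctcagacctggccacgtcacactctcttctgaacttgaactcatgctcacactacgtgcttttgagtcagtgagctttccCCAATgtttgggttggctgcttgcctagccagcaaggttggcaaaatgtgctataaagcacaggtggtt

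Carriers of amino acids and of the urea cycle. Of these 10 genes, 5 had an ATACseq peak at the TSS in WT and 6 in Uhrf1hepKO, and 8 and 6 had an H2A.Z peak. Of all genes, 31.4% and 29.0% had an ATACseq peak there, and 54.4% and 52.6% an H2A.Z peak. Slc25a26 was the most heavily marked of them. Its TSS (chr6:94500331, plus strand) was flanked in WT by H2A.Z summits 515 and 322 bp upstream, each with 26 reads (17.0 to 38.1), and 314 bp downstream with 33 reads (22.7 to 46.3). In Uhrf1hepKO the summits lay 571 and 338 bp upstream with 28 and 26 reads and 330 bp downstream with 40 reads. The ATACseq peak between them had a fold of 7.48 in WT, which 3.16% of that list reached, and of 4.73 in Uhrf1hepKO, which 28.2% of that list reached. This was thus among the strongest ATACseq peaks of the WT list and nearer to the middle of the Uhrf1hepKO list, with H2A.Z on both sides of it in both genotypes. The ATACseq peak spanned 290 bp in WT and 405 bp in Uhrf1hepKO, and its fold is a mean over that span.

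The liver carriers of the urea cycle had weaker peaks. Slc25a15, which exchanges ornithine and citrulline, had 3 H2A.Z summits in each genotype, all upstream. In WT they lay 249, 2377 and 3065 bp upstream with 24, 19 and 15 reads, and in Uhrf1hepKO 233, 2366 and 3059 bp upstream with 22, 16 and 14 reads. An ATACseq peak was listed in Uhrf1hepKO alone, 2103 bp upstream, with a fold of 3.82, which 60.6% of the list reached. Slc25a15 thus kept the places of its H2A.Z peaks while its only ATACseq peak was in the knockout list.

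Slc25a13 had 1 WT H2A.Z summit 198 bp upstream with 17 reads (9.90 to 27.2) and no H2A.Z peak in Uhrf1hepKO. Its CpG-poor upstream ATACseq peak, printed above, was listed in both genotypes, centred 2677 bp upstream in WT (fold 3.80) and 2768 bp upstream in Uhrf1hepKO (fold 4.12). The Uhrf1hepKO list held a further peak 194 bp upstream with a fold of 4.14. Slc25a12, the paralogue of Slc25a13 that is typical of muscle and brain, differed the other way: a WT ATACseq peak over its TSS (fold 4.50) was absent from the Uhrf1hepKO list. A narrow WT H2A.Z peak 5 bp upstream of that TSS with 19 reads overlapped none in the knockout. Its flanking summits stayed listed in both genotypes, with 26 reads 210 bp upstream and 22 reads 858 bp downstream in WT, and with 29 reads 407 bp upstream, 19 reads 337 bp downstream and 29 reads 824 bp downstream in Uhrf1hepKO.

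Slc25a22, a glutamate carrier, had a single peak in the 4 lists, a WT H2A.Z summit 365 bp downstream with 19 reads (11.4 to 29.7). Slc25a44, the carrier of branched-chain amino acids, had H2A.Z summits 413 and 2780 bp upstream in WT with 24 and 12 reads and 381 bp upstream in Uhrf1hepKO with 32 reads, and an ATACseq peak in Uhrf1hepKO alone (47 bp upstream, fold 3.82). At the shared promoter of Slc25a29 and Slc25a47 the ATACseq peak had a fold of 3.81 in WT and 4.13 in Uhrf1hepKO. A single H2A.Z summit counted for both genes, with 15 reads (8.40 to 24.7) in WT and 21 reads (13.0 to 32.1) in Uhrf1hepKO, and it lay on the Slc25a47 side, 116 and 95 bp past that TSS. The glycine carrier Slc25a38 had ATACseq folds of 4.70 and 4.58 and up to 24 and 23 H2A.Z reads. The glutamate carrier Slc25a18 and the ornithine carrier Slc25a2 had no peak at the TSS.

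Carriers of cofactors, nucleotides, iron and glutathione. These 9 promoters held a median of 88 CpGs in the 1 kb centred on the TSS. ATACseq peaks were listed at 5 of them in each genotype, and H2A.Z peaks at 7 in WT and 5 in Uhrf1hepKO. Of all genes, 31.4% and 29.0% had ATACseq, and 54.4% and 52.6% had H2A.Z. Among all genes with 60 or more CpGs the shares were 51.2% and 46.5% for ATACseq, and 77.8% and 75.7% for H2A.Z.

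Slc25a36 had ATACseq without H2A.Z. Its ATACseq peak covered the TSS and spanned 448 bp with a fold of 5.40 in WT, and 121 bp with a fold of 3.38 in Uhrf1hepKO, and no H2A.Z peak was listed within 5 kb in either genotype although the promoter held 88 CpGs. Only Slc25a36, Slc25a34 and Slc25a46 had WT ATACseq without H2A.Z at the TSS (6.98%, all genes 2.43%). Slc25a46 is an outer membrane protein that takes part in mitochondrial dynamics, and its folds were 3.78 in WT and 3.76 in Uhrf1hepKO. Slc25a34 had a fold of 3.74 in WT and no peak in Uhrf1hepKO.

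The glutathione carriers Slc25a39 and Slc25a40 differed from each other. Slc25a40, which starts 134 bp from Dbf4 on the other strand, had 4 WT H2A.Z summits, 854 and 261 bp upstream and 116 and 518 bp downstream, with 19, 15, 20 and 31 reads. In Uhrf1hepKO there were 3, 858 and 267 bp upstream and 529 bp downstream, with 17, 18 and 30 reads, and the WT ATACseq peak (fold 4.29) was not listed. Slc25a39 had no ATACseq peak, and its WT H2A.Z summits 962 and 3763 bp upstream, each with 19 reads (11.4 to 29.7), were not listed in Uhrf1hepKO. Slc25a33, a pyrimidine nucleotide carrier, had a WT H2A.Z summit 2974 bp upstream with 18 reads (10.7 to 28.5), which lay 999 bp from the start of the noncoding gene Gm16188, and an ATACseq peak at the TSS in Uhrf1hepKO alone (fold 3.42, which 86.0% of the list reached).

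The mitoferrins Slc25a28 and Slc25a37, which bring iron into mitochondria, also differed. Slc25a28 had ATACseq folds of 4.74 in WT and 5.06 in Uhrf1hepKO, the latter one of the 3 highest of the family in that list. Its H2A.Z summits lay 403 and 793 bp upstream with 28 and 20 reads in WT, and 391 and 696 bp upstream with 25 and 20 reads in Uhrf1hepKO. Slc25a37 had no ATACseq peak, and its single H2A.Z summit had 18 reads in WT (10.7 to 28.5) and 27 in Uhrf1hepKO (17.8 to 39.3), intervals that overlap. For the NAD carrier Slc25a51 the WT ATACseq peak reached only the edge of the window, centred 5078 bp upstream (fold 4.08), whereas the Uhrf1hepKO peak lay 56 bp upstream (fold 3.89). The distal WT peak did overlap a Uhrf1hepKO peak, so the place over the TSS is where the lists of Slc25a51 differed. Its H2A.Z reads were 16 and 20. The folate carrier Slc25a32 had no peak.

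Carriers of di- and tricarboxylates and of acylcarnitine. None of these 5 genes had an ATACseq peak at the TSS in either genotype (all genes with a peak 31.4% in WT and 29.0% in Uhrf1hepKO). H2A.Z was listed at 4 of them in both genotypes (all genes 50.4%). H2A.Z without ATACseq was not particular to these carriers. In WT, 20 of 33 members with H2A.Z had ATACseq (60.6%), and 53.3% of all genes with H2A.Z. Slc25a17, Slc25a24 and Slc25a37 also had H2A.Z alone in both genotypes. At Slc25a11, Slc25a20 and Slc25a21 the missing ATACseq peak did not go with weak H2A.Z. Their highest summits stood above the median of all genes with a peak, 29 reads in WT and 31 in Uhrf1hepKO. Slc25a1 stood below it in both genotypes, and Slc25a10 had no H2A.Z peak. Slc25a11, the oxoglutarate carrier, had a summit 96 bp downstream with 39 reads (27.7 to 53.3) in WT and 86 bp downstream with 42 reads (30.3 to 56.8) in Uhrf1hepKO. There its fold of 9.99 was among the 3 highest of the family. A WT summit 202 bp upstream with 20 reads was not listed in the knockout. Slc25a21, a carrier of oxodicarboxylates, had the widest H2A.Z peak of the family, 1689 bp over the TSS in WT with 41 reads (29.4 to 55.6), a width that 0.0158% of the list reached. In Uhrf1hepKO the same stretch was listed as 2 peaks of 560 and 1027 bp with 36 and 34 reads. Slc25a21 thus carried a broad H2A.Z domain, with 38 CpGs within 500 bp of the TSS.

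Slc25a20, the carnitine/acylcarnitine carrier of fatty acid oxidation, had the same number of reads at its highest summit in both genotypes, 34 (23.6 to 47.5), 191 bp upstream in WT and 189 bp upstream in Uhrf1hepKO. Downstream it had 18 and 19 reads at 185 and 455 bp in WT, and 20, 20 and 27 reads at 207, 434 and 648 bp in Uhrf1hepKO. Slc25a1, the citrate carrier that supplies lipid synthesis, had summits 509 and 773 bp upstream with 27 and 21 reads in WT, and 236 and 768 bp upstream with 25 and 17 reads in Uhrf1hepKO. Both of these liver carriers kept H2A.Z at the promoter without an ATACseq peak. Slc25a10, the dicarboxylate carrier, had no peak in any list within 5 kb despite 69 CpGs.

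Carriers of adenine nucleotides, phosphate and coenzyme A. H2A.Z was listed at 8 of these 10 genes in each genotype (all genes 54.4% in WT and 52.6% in Uhrf1hepKO). ATACseq was listed at 6 in WT and 5 in Uhrf1hepKO (all genes 31.4% and 29.0%). Slc25a3 had the highest WT H2A.Z fold of the family, 11.2, at a summit 238 bp upstream with 45 reads (32.8 to 60.2). In Uhrf1hepKO the summit lay 431 bp upstream with 40 reads (28.6 to 54.5), a fold of 9.53 that it shared with Slc25a26. Weaker peaks were listed 3686 bp upstream in WT with 13 reads, and 2711 and 3862 bp upstream in Uhrf1hepKO with 16 and 17 reads. The ATACseq folds over the TSS of Slc25a3 (chr10:91124059, minus strand) were 5.51 in WT and 5.69 in Uhrf1hepKO, so that both assays ranked this promoter among the strongest of the family in both genotypes.

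Slc25a16, linked to coenzyme A in the matrix, had 4 WT summits with 26 reads 866 bp upstream, 42 reads 324 bp upstream, 19 reads 158 bp downstream and 21 reads 381 bp downstream. In Uhrf1hepKO it had 3, with 20 reads 741 bp upstream, 39 reads 334 bp upstream and 19 reads 354 bp downstream. The ATACseq folds at Slc25a16 were 4.28 and 3.48. Slc25a42 had an ATACseq peak of 575 bp in WT (fold 4.65) and 559 bp in Uhrf1hepKO (fold 4.77), with the H2A.Z summit beyond its upstream edge, 719 and 725 bp from the TSS, with 22 reads (13.8 to 33.3) and 31 reads (21.1 to 44.0). Slc25a42 therefore had a wide open stretch and H2A.Z on its upstream side alone.

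Slc25a25, an ATP-Mg/phosphate carrier, had the widest ATACseq peak at a TSS, 771 bp in WT (fold 4.09) and 801 bp in Uhrf1hepKO (fold 4.39), and the most CpGs of the family, 105. Its H2A.Z summits lay 281 and 920 bp upstream with 32 and 31 reads in WT, and 284 and 915 bp upstream with 25 and 33 reads in Uhrf1hepKO. The summit nearer to the TSS lay inside the ATACseq peak and the other beyond its upstream edge, in a peak that overlaps an exon of Naif1. Naif1 is on the other strand and starts 988 bp downstream of the Slc25a25 TSS. Slc25a23, of the same subfamily, had H2A.Z summits 223, 961, 2239 and 2500 bp upstream with 16, 25, 19 and 18 reads in WT. In Uhrf1hepKO the first 3 of these places were listed, 171, 967 and 2233 bp upstream with 19, 23 and 20 reads, and its WT ATACseq peak (681 bp upstream, fold 4.03) was not. Slc25a24, the third relative with H2A.Z, had no ATACseq peak and 15 and 16 reads.

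Slc25a31, the ADP/ATP carrier of the male germline, had peaks far from its TSS and none near it: ATACseq 3862 bp upstream in WT (fold 4.75) and 3872 bp upstream in Uhrf1hepKO (fold 5.15), and H2A.Z 3660 and 3595 bp upstream with 29 and 24 reads. All 4 lay in intergenic sequence. Slc25a17, a carrier of the peroxisomal membrane, had H2A.Z alone, with 28 reads 227 bp upstream in WT and 34 reads 252 bp upstream in Uhrf1hepKO. Slc25a4, the ADP/ATP carrier of heart and muscle, and Slc25a41 had no peak.

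Uncoupling-protein-like and less studied carriers. Slc25a27 and Slc25a30 each had a peak in all 4 lists. Slc25a27, which starts 211 bp from Cyp39a1 on the other strand, had ATACseq folds of 4.97 and 3.85 and H2A.Z reads of 20 and 23. Slc25a30 had ATACseq folds of 5.11 and 3.87 and H2A.Z reads of 16 and 23. Slc25a35, 1 of the 7 less studied carriers, had the highest H2A.Z fold of the family, 11.6 in Uhrf1hepKO, which 2.04% of that list reached. Slc25a35 had 49 reads (36.3 to 64.8) 133 bp downstream in Uhrf1hepKO, against 40 reads (28.6 to 54.5) 101 bp downstream in WT. On the other side of its TSS lay a WT summit 227 bp upstream with 32 reads, and Uhrf1hepKO summits 209 and 507 bp upstream with 29 and 18 reads. The ATACseq folds of Slc25a35 were 4.66 and 3.81. Slc25a48 had ATACseq folds of 3.51 and 3.58 and H2A.Z reads of 23 and 26. The H2A.Z peak that counted for Slc25a45, with 23 and 27 reads, lay 2372 bp upstream and 162 bp from the start of its neighbour Frmd8, so it is a peak of the Frmd8 promoter, and a WT peak 534 bp downstream with 19 reads was not listed in Uhrf1hepKO. Slc25a54 had no peak.

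**Figure D2:**
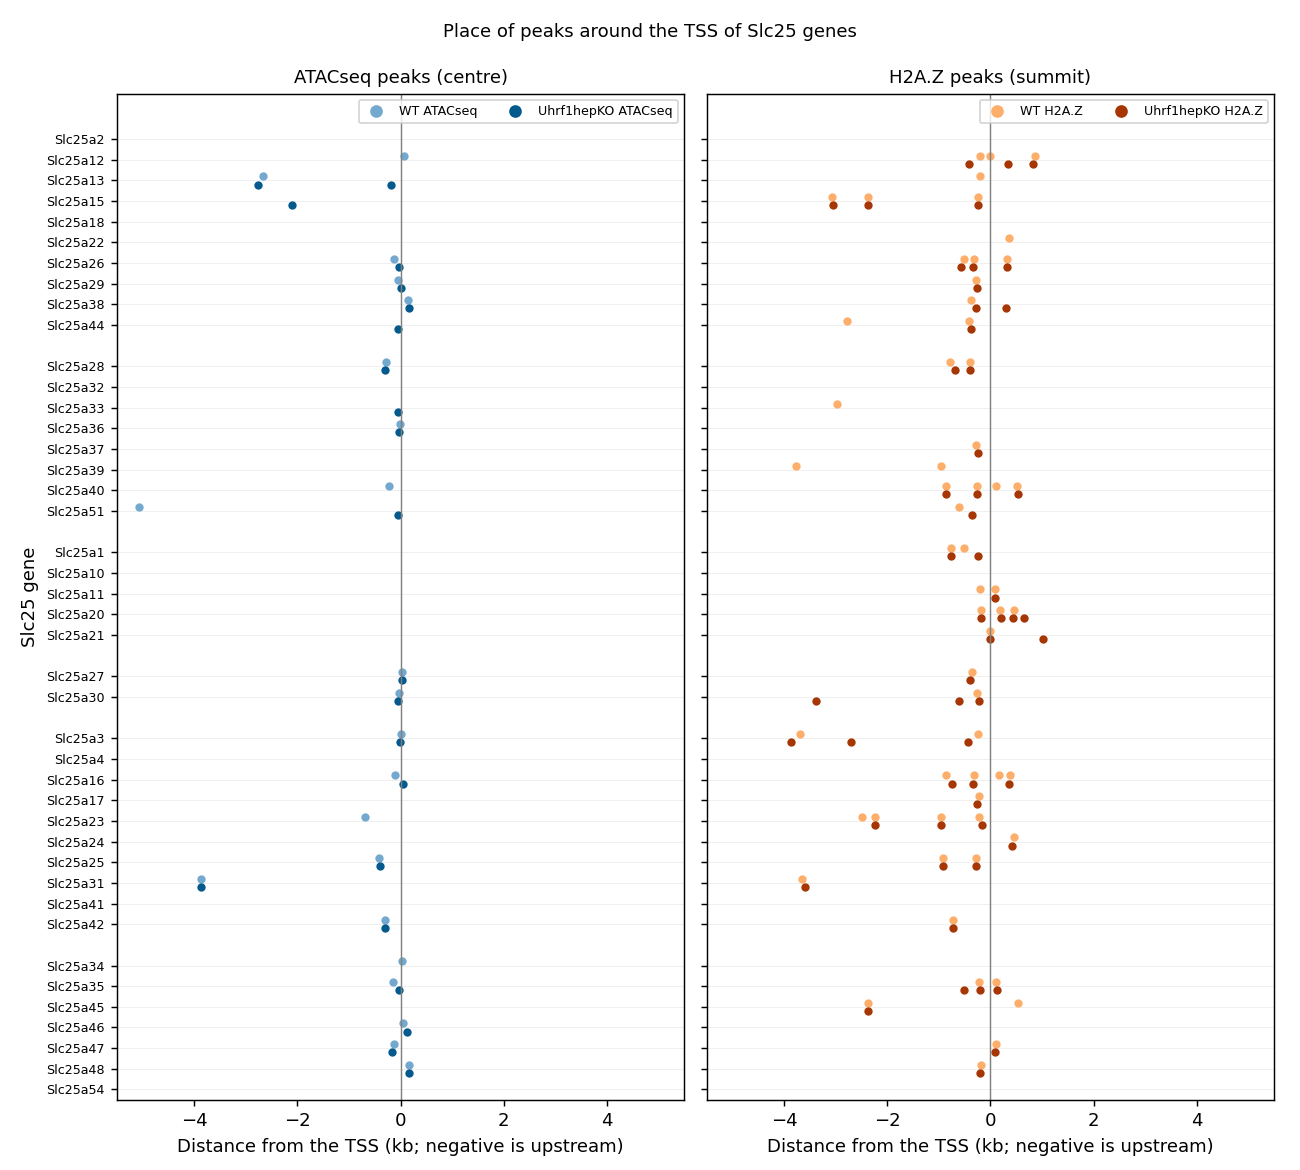
Distance from the TSS (kb, negative is upstream) of ATACseq peak centres (left) and H2A.Z summits (right) within 5 kb of 42 of the 43 Slc25 genes, WT in the lighter and Uhrf1hepKO in the darker colour. ATACseq peaks gathered at the TSS and H2A.Z summits mostly upstream of it, with Slc25a13, Slc25a15, Slc25a31 and Slc25a51 as genes with ATACseq peaks over 2 kb upstream.

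A larger share of H2A.Z summits stood on the upstream side at Slc25 promoters than at promoters as a whole. Within 1 kb of the TSS, 33 of 50 WT summits lay more than 100 bp upstream (66.0%, all genes 51.3%), 14 lay more than 100 bp downstream (28.0%, all genes 42.7%) and 3 lay between. In Uhrf1hepKO the numbers were 32 upstream and 12 downstream of 47 (68.1% and 25.5%, all genes 52.5% and 41.7%). By gene, with summits within 100 bp of the TSS left out, 19 members had summits on the upstream side alone in WT (44.2%, 30.4 to 58.9, all genes 16.1%). In Uhrf1hepKO it was 15 (34.9%, all genes 16.5%). On the downstream side alone it was 4 and 1 (9.30% and 2.33%, all genes 7.86% and 7.78%). These shares are of all genes, with or without H2A.Z. Of the 43 members, 10 have a gene on the other strand that starts within 1 kb upstream, and this share was not computed for all genes. A summit upstream of a member can lie nearer to such a partner. In WT this held 249 bp upstream of Slc25a15, 125 bp from the start of 1810012K16Rik. It also held 403 bp upstream of Slc25a28, 106 bp from the start of AC138790.1. The shared summit of Slc25a29 and Slc25a47 counted for each of them. Slc25a11 counted as upstream alone in WT although its highest summit lay 96 bp downstream. Slc25a47 left the downstream count because its summit lay 116 bp downstream in WT and 95 bp downstream in Uhrf1hepKO. Summits on both sides were found at 7 members in WT (16.3%, all genes 21.8%), Slc25a12, Slc25a16, Slc25a20, Slc25a26, Slc25a35 and Slc25a40 among them. In Uhrf1hepKO these 7 were joined by Slc25a38, which gave 8 (18.6%, all genes 20.1%).

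An ATACseq peak covered the TSS itself at 15 members in WT (34.9%, all genes 18.9%) and at 14 in Uhrf1hepKO (32.6%, all genes 16.9%). H2A.Z on both sides accompanied it at 5 of those 15 (33.3%, 15.2 to 58.3), against 58.1% of all genes with an open TSS, and at 5 of the 14 in Uhrf1hepKO (35.7%, 16.3 to 61.2), against 53.3%. The share of open Slc25 promoters with H2A.Z on each side was thus the lower one in both genotypes, but the shares of all genes lay inside the intervals. Reads at the highest summit were also fewer, with a median of 24 over 33 members in WT (all genes with a peak 29) and of 27 over 29 members in Uhrf1hepKO (all genes 31).

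The reads at Slc25 summits had overlapping counting intervals in WT and Uhrf1hepKO. Over the 29 members with H2A.Z at the TSS in both genotypes, the ratio of reads at the highest summit, Uhrf1hepKO over WT, had a median of 1.077 and ranged from 0.828 at Slc25a31 to 1.5 at Slc25a37. Over all 10489 genes with H2A.Z in both genotypes the median was 1.065, the same as the ratio of the backgrounds, with 0.793 and 1.414 as the 5th and 95th percentiles. Reads were higher in Uhrf1hepKO at 17 members, lower at 11 and equal at 1, and the Poisson intervals of the genotypes overlapped at all 29. One member reached a ratio of 1.5 (3.45%, all genes 2.73%), and 0 were as much higher in WT (all genes 0.829%). At 24 of the 29 the highest summits of the genotypes lay within 150 bp of each other.

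**Figure D3:**
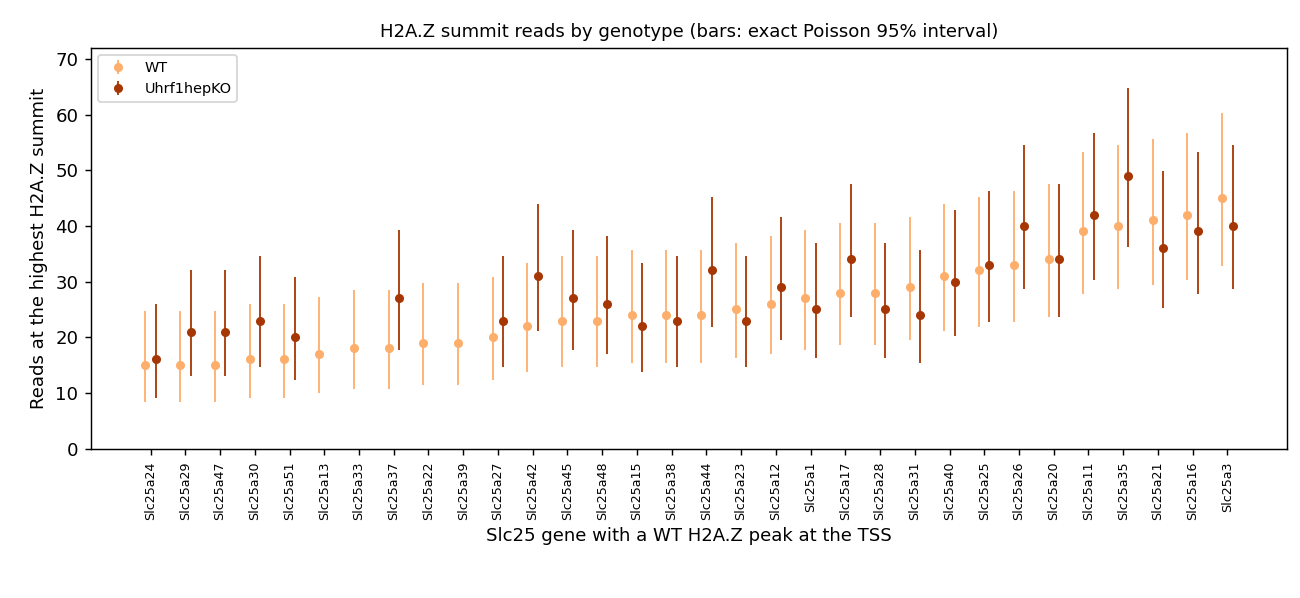
Reads at the highest H2A.Z summit within 5 kb of the TSS (vertical axis) for 32 of the 33 Slc25 genes with a WT peak, ordered by WT reads. Points are single libraries and bars are exact Poisson 95% intervals. The bars of WT and Uhrf1hepKO overlap at all 28 plotted genes with both, and the 4 genes with a WT point alone have 17 to 19 reads.

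Some members had a TSS peak in 1 genotype only, and most of these peaks were below the median fold of their list. The shares of such members were above those of all genes, except for H2A.Z in Uhrf1hepKO alone. In each case the share of all genes lay inside the interval of the members. For H2A.Z the members with a peak in 1 genotype were Slc25a13, Slc25a22, Slc25a33 and Slc25a39, listed in WT alone (4 members, 9.30%, 3.68 to 21.6, all genes 3.99%), each with 17 to 19 reads at its highest summit. No member had H2A.Z in Uhrf1hepKO alone (all genes 2.17%). Among Uhrf1hepKO peaks with the usual background the fewest reads were 12 and the 5th percentile was 15 reads, and the reads of Uhrf1hepKO at these 4 places are not in the list. When only peaks from the median fold of each list up were kept, 0 members were in WT alone and 2 in Uhrf1hepKO alone. The 0 follows from the cut, because the 4 members above had WT folds of 4.39 to 4.87, below the median of 5.12. The 2 were Slc25a30 and Slc25a37, whose listed WT peaks had folds of 4.14 and 4.63, also below it. With lists of equal length the members in WT alone and in Uhrf1hepKO alone numbered 4 and 1. For ATACseq, Slc25a12, Slc25a23, Slc25a34 and Slc25a40 were listed in WT alone (9.30%, all genes 7.44%) with folds of 3.74 to 4.50, and Slc25a15, Slc25a33 and Slc25a44 in Uhrf1hepKO alone (6.98%, 2.40 to 18.6, all genes 5.07%) with folds of 3.42 to 3.82. Of these 7 peaks only that of Slc25a12 stood above the median fold of its list, 4.31 in WT and 4.05 in Uhrf1hepKO.

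Peak by peak, 59 of 72 WT H2A.Z peaks at the TSS or in the body of a member overlapped a Uhrf1hepKO peak (81.9%, 71.5 to 89.1, all peaks 70.0%), and 62 of 69 Uhrf1hepKO peaks overlapped a WT peak (89.9%, all peaks 75.7%). For ATACseq it was 19 of 28 WT peaks (67.9%, 49.3 to 82.1, all peaks 61.3%) and 18 of 23 Uhrf1hepKO peaks (78.3%, 58.1 to 90.3, all peaks 60.2%). Of the WT ATACseq peaks, 18 of 22 at the TSS and 1 of 6 in the body had a Uhrf1hepKO peak over them.

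Slc25 promoters were rich in CpGs. Within 500 bp of the TSS they held a median of 61 CpGs (13 to 105), against 43 for all protein-coding genes. Methylation of these CpGs was not measured here. The paper reports CpGs in regions with ATACseq or H2A.Z signal as unmethylated. In the class of 60 or more CpGs, 18 of 23 members had H2A.Z in WT (78.3%), close to the 77.8% of all genes in that class. With 40 to 59 CpGs it was 9 of 9 (70.1 to 100, all genes 74.5%), with 20 to 39 it was 6 of 8 (75.0%, 40.9 to 92.9, all genes 50.8%), and with under 20 it was 0 of 3 (all genes 21.5%). In Uhrf1hepKO the members of these classes, from the most CpG-rich down, had H2A.Z at 16 of 23 (69.6%, all genes 75.7%), 8 of 9 (88.9%, all genes 72.1%), 5 of 8 (62.5%, all genes 48.7%) and 0 of 3 (all genes 20.3%). In both genotypes the shares of all genes lay inside the intervals of the members in every class. For WT ATACseq the members were above all genes in both of the upper classes, with 15 of 23 (65.2%, 44.9 to 81.2, all genes 51.2%) and 7 of 9 (77.8%, 45.3 to 93.7, all genes 45.2%). Below 40 CpGs, 0 of 8 had a peak in the class of 20 to 39 (all genes 22.5%) and 1 of 3 in the lowest (all genes 7.66%), the one being Slc25a34 with 18 CpGs.

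**Figure D4:**
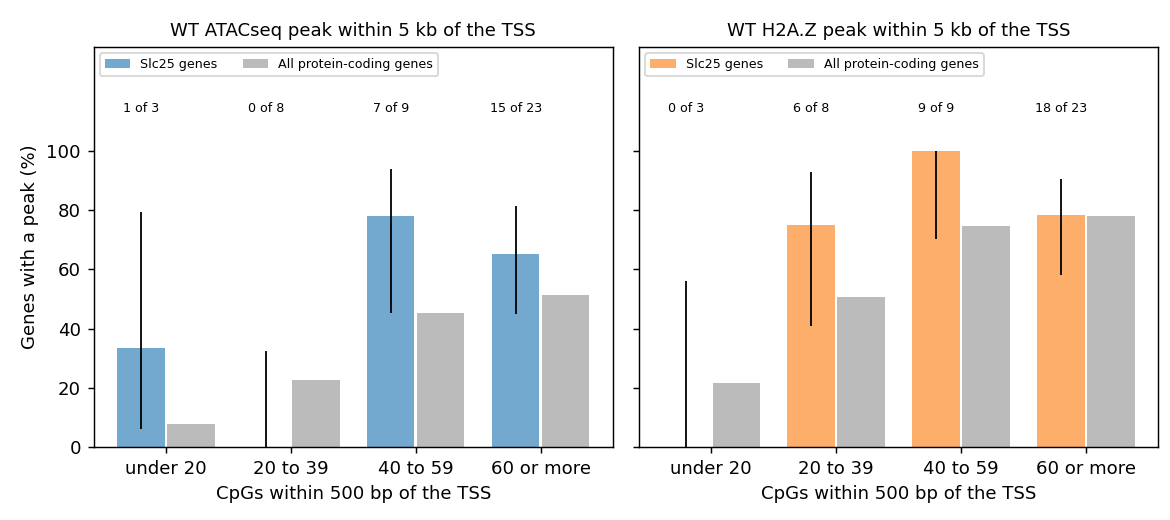
Share of genes (%) with a WT ATACseq (left) or WT H2A.Z peak (right) within 5 kb of the TSS, against CpGs in the 500 bp on either side. Coloured bars are Slc25 genes with Wilson 95% intervals and the counts above them, grey bars all protein-coding genes. With 60 or more CpGs the H2A.Z shares were 78.3% and 77.8%, and with 20 to 39 CpGs no Slc25 gene had an ATACseq peak.

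The motif letters were searched in the 250 bases before and 50 bases after each TSS. The E-box CACGTG was found at 10 of 43 members (23.3%, 13.2 to 37.7) and at 7.82% of all promoters of that length, and the CCAAT box at 22 (51.2%, all 38.6%). Both shares were also above those of all promoters among the 32 members with 40 or more CpGs, 28.1% against 11.0% for the E-box and 53.1% against 37.7% for the CCAAT box. The ETS motif (20.9%, all 11.0%) and the GC box (65.1%, all 43.7%) were more frequent at members over all promoters, but in the CpG-rich class they were near the background, 18.8% against 17.8% and 71.9% against 70.2%. The letters of the NRF1 core were found at 2 members (4.65%, all 4.43%), of the YY1 core at 2 (4.65%, all 4.13%), of the nuclear receptor half-site at 1 (2.33%, all 4.23%), and of the forkhead motif at 0 (all 3.07%). The 10 E-box promoters were those of Slc25a1, Slc25a2, Slc25a13, Slc25a26, Slc25a31, Slc25a32, Slc25a33, Slc25a36, Slc25a46 and Slc25a51. Of these, 6 had an ATACseq and 6 an H2A.Z peak at the TSS in WT, and 7 and 4 in Uhrf1hepKO. The shares of all 43 members were 53.5% and 76.7% in WT, and 51.2% and 67.4% in Uhrf1hepKO. For all genes they were 31.4% and 54.4% in WT, and 29.0% and 52.6% in Uhrf1hepKO.

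The 7 members without a peak were not all CpG-poor. Slc25a32 held 92 CpGs and starts 149 bp from Dcaf13 on the other strand, yet its nearest H2A.Z peaks lay 60.2 kb away in both genotypes. Slc25a10 held 69 CpGs, and the nearest H2A.Z peaks lay 7.42 kb upstream in WT with 21 reads and 7.39 kb upstream in Uhrf1hepKO with 19 reads. Slc25a4 held 61 CpGs, and its nearest H2A.Z peak lay just outside the window, 5.71 kb upstream in both genotypes with 29 reads in WT and 20 in Uhrf1hepKO. Slc25a2, with 31 CpGs, also had its nearest peaks of all 4 lists just outside, 5.31 to 5.87 kb upstream. These lie near the start of Taf7. Slc25a54, Slc25a41 and Slc25a18 held 26, 15 and 13 CpGs, and their nearest H2A.Z peaks were 43.1, 9.27 and 49.6 kb away in WT. The peak nearest to Slc25a54 was the one that counted for its neighbour Slc25a24.

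In the gene body, defined as the gene past 5 kb from its TSS, Slc25 genes held no more H2A.Z than other genes. Of 37 members longer than 5 kb, 6 had an H2A.Z peak there in WT and 6 in Uhrf1hepKO (both 16.2%, 7.65 to 31.1), against 23.6% and 22.4% of all genes of that kind. Per length, the 13 WT and 14 Uhrf1hepKO peaks gave 0.903 and 0.972 peaks per 100 kb, against 1.278 and 1.151 for all genes. ATACseq peaks lay in the body of 6 members in WT (16.2%, all genes 10.9%) and of 1 in Uhrf1hepKO (2.70%, 0.479 to 13.8, all genes 11.4%), or 0.417 and 0.069 per 100 kb against 0.263 and 0.287. The interval of the WT share and that of the Uhrf1hepKO share overlap, and at q of at most 0.01 the ATACseq numbers were 2 and 0.

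Slc25a47 was the member with a body ATACseq peak in both genotypes, a wide but weak one in an intron, 14.1 kb from the TSS, of 664 bp and fold 3.17 in WT and of 589 bp and fold 3.09 in Uhrf1hepKO. Its centre lay 955 bp in WT and 1020 bp in Uhrf1hepKO from the start of another transcript of Slc25a47. The WT peaks absent from the other list lay in introns of Slc25a25 (27.3 kb, fold 4.35), Slc25a26 (101.0 kb, fold 4.44), Slc25a42 (11.9 kb, fold 3.65) and Slc25a48 (6.8 kb, fold 3.91), and in the last part of Slc25a35 (5.6 kb, fold 3.84). That of Slc25a25 lay 189 bp from the start of another transcript of the same gene. That of Slc25a35 lay where the gene overlaps an exon of Rangrf.

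Slc25a26 and Slc25a21 had the most body H2A.Z peaks. In WT the 3 summits of Slc25a26 lay 50.9, 58.3 and 63.2 kb into the gene with 18, 16 and 30 reads. In Uhrf1hepKO there were 5, at 51.1, 58.3, 62.9, 63.2 and 100.8 kb with 22, 18, 36, 30 and 25 reads. All lay in introns, and the last stood by the place of the WT ATACseq peak. Slc25a21, the longest member at 484839 bp, had 3 in each genotype, of which a cluster about 245 kb into the gene was shared: 28 reads at 245326 bp and 22 at 245053 bp in WT, and 25, 21 and 18 reads at 245336, 245046 and 244816 bp in Uhrf1hepKO. The other WT peak of Slc25a21 had 13 reads at 299624 bp.

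At the 3′ end of Slc25a35 the H2A.Z peaks were as strong as at its start, with 34 reads (23.6 to 47.5) at 5439 bp and 39 reads at 5881 bp in WT, and 34 reads at 5434 bp and 49 reads (36.3 to 64.8) at 5878 bp in Uhrf1hepKO. They stood on either side of the WT ATACseq peak and 1173 to 1620 bp from the start of Rangrf, which converges on Slc25a35. Slc25a48 had a pair of intronic summits in both genotypes, 23 and 25 reads at 19.6 and 19.9 kb in WT and 26 and 21 reads at 19.6 and 19.8 kb in Uhrf1hepKO. Slc25a27 had 1 in each genotype, 22.8 kb from the TSS, with 16 and 18 reads. The remaining body peaks were in 1 list each: 17 and 13 reads in Slc25a31 in WT, and 17 reads in Slc25a12 in Uhrf1hepKO. The body peaks found in both genotypes thus lay in Slc25a21, Slc25a26, Slc25a27, Slc25a35 and Slc25a48.

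**Figure D5:**
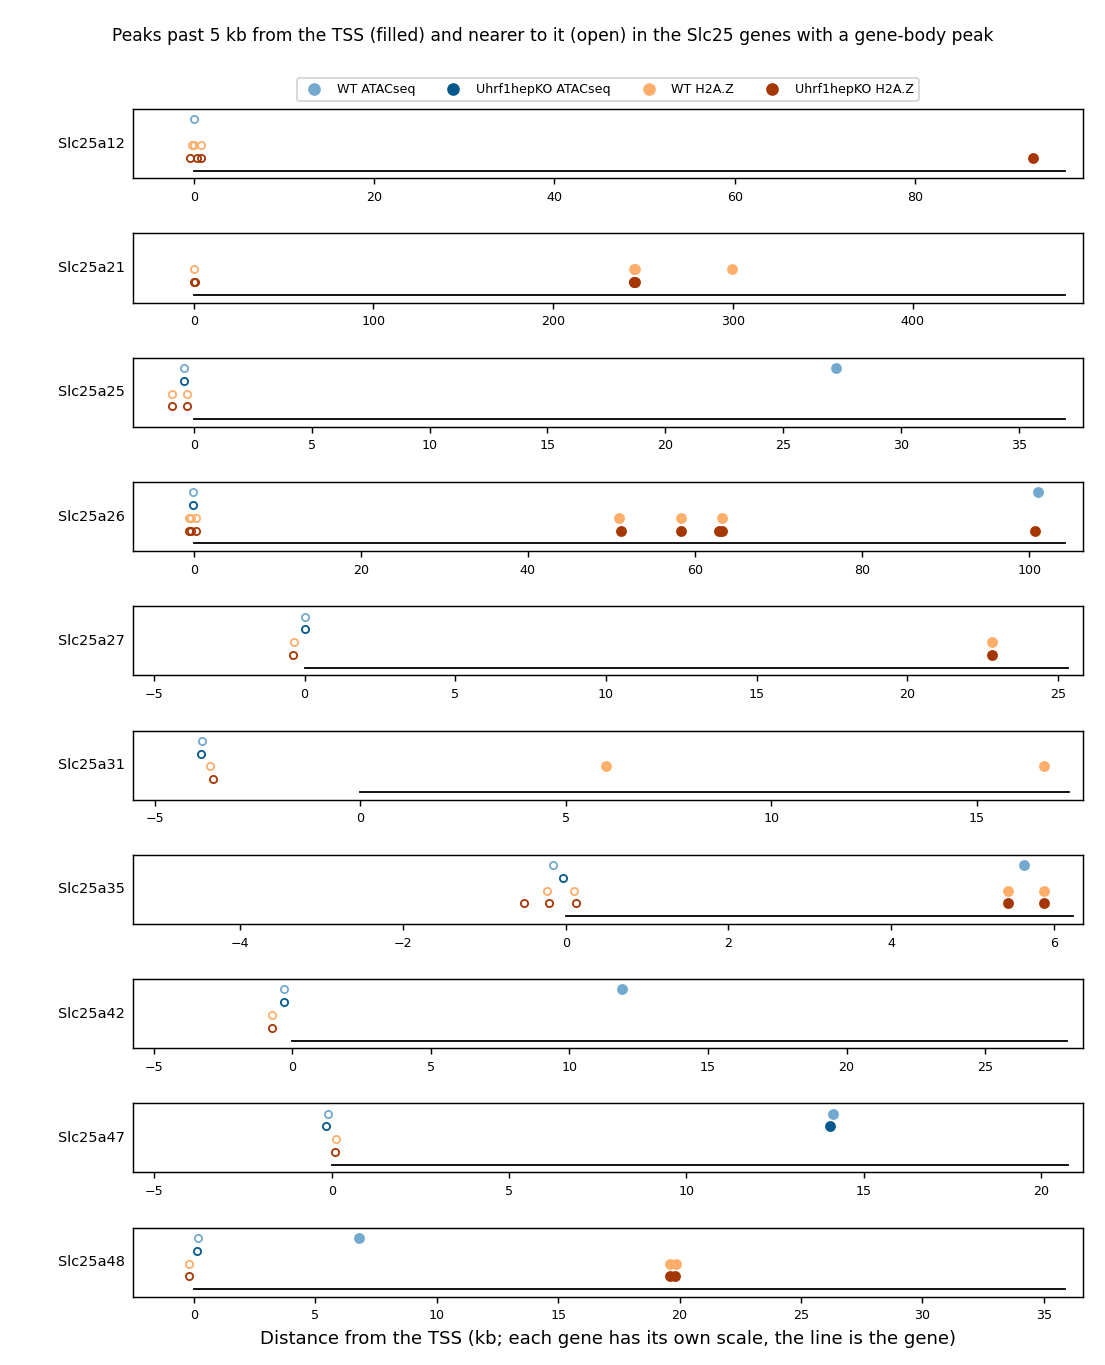
Peaks along the 10 Slc25 genes with a peak past 5 kb from the TSS: filled points are gene-body peaks, open points peaks nearer to the TSS, the black line is the gene, and the horizontal axis is the distance from the TSS in kb on a scale of its own for each gene. H2A.Z clusters recur in both genotypes in Slc25a21, Slc25a26, Slc25a35 and Slc25a48, and 5 of the 6 WT ATACseq body peaks have no Uhrf1hepKO point.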

How the data were processed

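The study's ATACseq and H2A.Z peak lists were analysed, 1 library per condition. The authors aligned reads to GRCm38.p4 with BWA and processed them with Picard, removing duplicates for ChIPseq, after FastQC 0.11.5 and Trimmomatic, which the submitters' processing notes name. Peaks were called per library with MACS2 with a p-value threshold of 0.05, in broad mode with the paired-end option for ATACseq, although the reads are described as single-end. The mode, the control for H2A.Z and the MACS2 version are not given in the sources used here. The deposited columns hold a display score, a fold ratio over local background and −log10 p- and q-values. The deposited fold is (reads + 1)/(background + 1), and reads at H2A.Z summits and the background were solved from fold and p-value, which gave a whole number for 100% of peaks (tolerance 0.001 on −log10 p). ATACseq values are means over the peak and give no reads.

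TSS, gene and exon positions came from GENCODE vM21 on GRCm38, and sequence from the RefSeq FASTA of GRCm38.p6. A peak counted at the TSS when it overlapped the 5 kb on either side, and in the gene body otherwise. With no replicates there was no test. Counts are given with Wilson 95% intervals beside all 20807 protein-coding genes. Overlap needed 1 bp. Overlaps and read recovery were tested on simulated data, where 200 of 200 planted peaks and 1956 of 1956 pileups were recovered. All values were given for the 3 members with the highest fold in each list, members with no peak or a peak in 1 genotype, the 3 with the most H2A.Z in the body, and 9 liver carriers. Other members were given more briefly, and 1 member is in the totals while its own values are not reported here. The members, lists and motifs were chosen with earlier results of these data known. Alternatives were stricter peaks, lists of equal length, other windows, all transcripts and a stricter overlap. Python 3.11.15, numpy 2.4.6, pandas 2.3.3 and scipy 1.17.1 were used.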

Additional observations from a re-analysis of the deposited data

How the results depend on the processing

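With 1 library per condition no result has a replicate check, the total reads are not in the lists, and reads are known at listed peaks alone. No paired analysis was possible because each condition has 1 library and no result comes from a test. Of 84 alternative values for 15 results, 67 stayed within 1.5 times the count, or within the interval of the share, and 17 did not. When only the upper part of each list by fold was kept, from its median up, ATACseq at the TSS fell to 12 members in WT and 10 in Uhrf1hepKO, both marks in WT to 10, body ATACseq to 2 in WT and 0 in Uhrf1hepKO, H2A.Z in WT alone became 0 and in Uhrf1hepKO alone 2, and the share of WT ATACseq peaks that overlap was 42.9%. The counts of members with H2A.Z in 1 genotype therefore depend on this threshold, and the 2 in Uhrf1hepKO alone had listed WT peaks below it. Lower counts of members with a peak follow from such a cut, and the share of all genes at the same cut was not computed. At q of at most 0.01 body ATACseq was 2 in WT and 0 in Uhrf1hepKO. With lists of equal length H2A.Z in Uhrf1hepKO alone was 1. Over the whole gene, promoter included, WT and Uhrf1hepKO ATACseq counts were 18 and 16, and H2A.Z counts 16 and 14. With an overlap of at least 50% of both peaks, 65.3% of WT H2A.Z peaks were shared. In an alternative chosen after seeing the data, 3 members kept a WT ATACseq body peak over 1 kb from every annotated TSS. A window of 1 kb, all transcripts and centres or summits inside the window changed no count by more than 1.5 times, nor did a body past 1 kb.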

Other observations

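Carriers and channels of mitochondria that are not named Slc25a were read in the same lists, 20 genes in all. Of these, 16 had H2A.Z at the TSS in WT and 16 in Uhrf1hepKO (all genes 54.4% and 52.6%). ATACseq was listed at 9 and 11 (all genes 31.4% and 29.0%). The 20 promoters held a median of 60.5 CpGs. With 60 or more CpGs, 77.8% and 75.7% of all genes had H2A.Z, and 51.2% and 46.5% had ATACseq, in WT and Uhrf1hepKO. Letm1, an inner membrane protein of ion exchange, had the highest H2A.Z fold among the 20, 12.7 in WT and 13.0 in Uhrf1hepKO. It had no ATACseq peak at the TSS, like the carboxylate carriers and several members of other roles. Mcu, the pore of the calcium uniporter, had ATACseq folds of 6.36 and 6.06 and H2A.Z folds of 9.75 and 8.37 at the TSS, and 3 H2A.Z peaks in the body in WT and 5 in Uhrf1hepKO. Both subunits of the pyruvate carrier were listed in all 4 lists, Mpc1 with ATACseq folds of 4.54 and 4.47 and Mpc2 with 5.89 and 4.61. Of the porins of the outer membrane, Vdac3 had peaks in all 4 lists (ATACseq 5.70 and 5.22), Vdac1 had ATACseq in Uhrf1hepKO alone (fold 3.75), and Vdac2 had none at its TSS. Cpt1a and Cpt2, which hand acyl groups to and from carnitine on either side of Slc25a20, differed: Cpt1a had H2A.Z in WT alone (fold 4.87) and ATACseq in Uhrf1hepKO alone (fold 3.37), and Cpt2 had H2A.Z in both (8.53 and 10.7) and ATACseq in WT alone (fold 4.44). Among the uncoupling proteins, Ucp2 and Ucp3 had H2A.Z at the TSS in both genotypes and no ATACseq, and Ucp1, the protein of brown fat, had no peak at the TSS.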
